A study of Rattus norvegicus with 24 samples.

Results

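The subject here is a group of 8 interferon-induced genes in rat forebrain: Isg15, Mx1, Mx2, Ifit2, Ifit3, Irf7, Oas1a and Usp18. Their members are all probe sets for which the platform annotation names one of these genes and no other, 10 of the 31099 probe sets on the array, and 8 of the 14218 genes named in this way. Mx2 and Ifit2 have 2 probe sets each and the other 6 genes have 1. The genes were measured in male F344 rats 11 to 12 weeks old. Each rat was dosed once with D-serine, which acts together with glutamate at NMDA receptors, and was killed 96 h later. The 6 groups of 4 rats were given 0 mg/kg (vehicle), 5, 20, 50, 200 and 500 mg/kg. Total RNA of a forebrain piece of about 30 mg was hybridised to 1 Affymetrix rat expression array per rat, 24 arrays in all. No genotype or second agent is named in the labels. Each array has an animal of its own, so the spread within a group is that between rats, including how each piece was cut. In tissue pieces of this kind, fewer cells of a type and less RNA per cell cannot be told apart.

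Type I interferons bind a receptor on nearly all cells. The receptor's kinases, Jak1 and Tyk2, start a signal that ends at a promoter element called the interferon-stimulated response element (ISRE). The genes that follow are mostly antiviral. In brain they are kept low without infection, injury or inflammation, and microglia, endothelial cells and neurons can all make them. Among the members, Irf7 is a transcription factor that amplifies interferon production. Usp18 is a protease that removes Isg15 from proteins and dampens signalling at the interferon receptor. The other members are effectors, whose roles are given with their values.

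The upstream sequences are shown for the element through which interferon acts on such genes. RefSeq promoter sequences of the GRCr8 assembly were matched for 4 of the 8 members, namely Irf7, Ifit3, Mx1 and Oas1a; those of Isg15, Mx2, Ifit2 and Usp18 were not used here. The ISRE core was searched as GAAA, any 2 bases and GAAA again, on both strands, in the 250 bases before the annotated start. It was found in 3 of the 4 promoters, against 3.41% of 33469 promoters of the same length. The stretches of 30 bases around the matches are given on the gene's strand, with the core in capitals. In Ifit3 and Irf7 the core lies on the opposite strand and so reads as TTTC, 2 bases and TTTC, and in Oas1a 2 overlapping cores run together.
Ifit3, chr1:241527272-241527301, plus strand: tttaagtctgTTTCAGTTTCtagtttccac
Irf7, chr1:205800073-205800102, minus strand: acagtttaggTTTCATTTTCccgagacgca
Oas1a, chr12:41330418-41330447, plus strand: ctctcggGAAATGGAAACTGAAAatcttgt
The capitals begin 44 bases before the start of Ifit3, 69 before that of Irf7 and 41 before that of Oas1a. Mx1 had no match in this window. The element of interferon gamma signalling, the GAS core TTCNNNGAA, was found in Oas1a alone of the 4, against 7.67% of promoters. A match of letters is a description of these sequences and does not show that a factor binds there. Ifit2 and Ifit3 are neighbours on 1 chromosome with 0 protein-coding genes between them, and Mx1 and Mx2 are separated by 1.

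One array stood apart before any comparison. The array of 500 mg/kg replicate 4 correlated with the others at a median of 0.855, against 0.957 to 0.971 for the rest. Its summed intensity of 7 cerebellar markers was 14914, against at most 1064 elsewhere, and that of 6 forebrain neuron markers was 1025 against 5878 or more elsewhere, so the forebrain label is not borne out on this array. At 500 mg/kg, leaving it out turned the sign of 3 small differences, of Mx1 (-0.11 to 0.05), Mx2 1387283_at (-0.05 to 0.05) and Ifit2 1379568_at (0.03 to -0.04), and no other member's. The median deposited intensity of an array ran from 56.0 to 103.8, and log2 differences from vehicle had a median SE of 0.14.

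All members read dimly. Levels are log2(intensity + 16) after quantile normalization, and a probe set was kept for testing if its mean over the 24 arrays was above 5.98, the limit that leaves out the lowest 40%. The means of the 10 probe sets ran from 5.35 (Mx2 1369202_at) to 6.41 (Mx2 1387283_at), and their median position on the array from the 23.3 to the 49.3 percentile. Only 4 passed the filter: Isg15, Mx1, Mx2 1387283_at and Irf7, and Mx1 did so by 0.01. The other 6 are given from the same fit without a filter. Detection calls were not used here, so whether a member lay above the array's background was not tested, and a difference on this scale understates the change of a dim gene.

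No member passed the test at any dose. The number of member probe sets with a limma adjusted p under 0.05 was 0 at 5 mg/kg, where 5.52% of all probe sets past the filter were called (2.62% of those fitted without a filter). It was 0 at 20 mg/kg, where 8.48% were called (4.57% without a filter), and 0 at 50 mg/kg, where 0.864% were (0.329% without a filter). At 200 mg/kg 0% of all probe sets were called and at 500 mg/kg 0.00537% (0.00322% without a filter), so at these doses a count of 0 says little about the members. Counts were also 0 in the F test over all groups (5.93% of probe sets called, 3.13% without a filter), in the slope over dose rank (0% called) and between 500 and 200 mg/kg (0% called). The 95% intervals of the differences from vehicle had half-widths of 0.29 to 0.78 log2 units, the widest for Usp18. A difference smaller than its half-width could not be told from 0 even without adjustment. Larger ones could still miss the adjusted test, as did Isg15 at 500 mg/kg (-0.71, interval -1.24 to -0.18, limma adjusted p = 0.666). With an unadjusted p under 0.05 and no filter, 1 member probe set was below vehicle at 5 mg/kg, 0 at 20, 1 at 50, 1 at 200 and 2 at 500 mg/kg. The same rule, lower only, took 6.56%, 7.76%, 4.78%, 2.61% and 3.02% of all probe sets.

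The members' means lay mostly under that of the vehicle group, a count that moved with the arrays and the processing used. Below vehicle were 10 of 10 member probe sets at 5 mg/kg, 7 at 20, 9 at 50, 9 at 200 and 8 at 500 mg/kg, while 51.4%, 51.0%, 50.3%, 49.4% and 49.0% of all probe sets were. The median difference of the members was -0.12, -0.02, -0.11, -0.12 and -0.22 in that order, beside -0.01, -0.01, 0.00, 0.00 and 0.00 over all probe sets. In 6 of the 10 probe sets the mean was lower at every dose, as it was in 18.4% of all probe sets. The 5 comparisons share the 4 vehicle arrays, so these counts are not separate pieces of evidence, and the level of those arrays sets them all. Without vehicle replicate 3, described further on, 4, 5, 5, 6 and 6 of the 10 were below vehicle, with medians of 0.03, 0.06, 0.00, -0.03 and -0.05. In the values as deposited, without normalization, 3, 1, 7, 10 and 10 were below. Without 20 mg/kg replicate 2, 4 were below at 20 mg/kg, and without 500 mg/kg replicate 4, 7 were at 500 mg/kg. Other settings also moved the counts. At 20 mg/kg 5 were below without replicate 4 of that group. At 200 mg/kg the count was 7 without that group's replicate 1 and 10 without its replicate 2. Without vehicle replicate 1, 2 or 4, all 10 were below at 5 mg/kg. After median centring 10, 7, 9, 9 and 8 were below at the 5 doses. With the Gapdh ratio, a sign of RNA quality described further on, as a covariate, 8, 7, 7, 9 and 8 were. The medians were then -0.43, -0.34, -0.26, -0.16 and -0.24.

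Markers of some other cell types also lay under vehicle. Of 8 endothelial markers past the filter, 6, 7, 7, 6 and 7 were below vehicle at the 5 doses, with medians of -0.19, -0.11, -0.15, -0.12 and -0.24. Of 7 meningeal markers, 6, 5, 7, 7 and 7 were below, with medians of -0.23, -0.09, -0.45, -0.21 and -0.32. Of 3 blood markers, 3, 3, 2, 3 and 3 were below, and of 5 thalamic markers 5, 5, 5, 5 and 4. On vehicle replicate 2, 8 of 13 thalamic probe sets (61.5%) had their highest value of all arrays. In vehicle the summed intensity of 7 thalamic markers had a median of 838 and a maximum of 4376. That of 6 choroid plexus markers ran from 322 to 9085 in vehicle. The vehicle pieces thus differed among themselves in these markers. Whether the thalamic counts hold without vehicle replicate 2 was not tested. Microglial markers went both ways, with 3, 3, 6, 4 and 6 of 8 below, as did those of forebrain neurons (3, 4, 4, 3 and 5 of 6), choroid plexus (2, 3, 1, 2 and 3 of 3) and cerebellum (2, 2, 2, 5 and 0 of 5). Lymphocytes and the list of neutrophils and monocytes had 1 marker each past the filter, below vehicle at all 5 doses for the former and at 0 for the latter. The part of these markers in the members' differences was not tested.

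**Figure D1:**
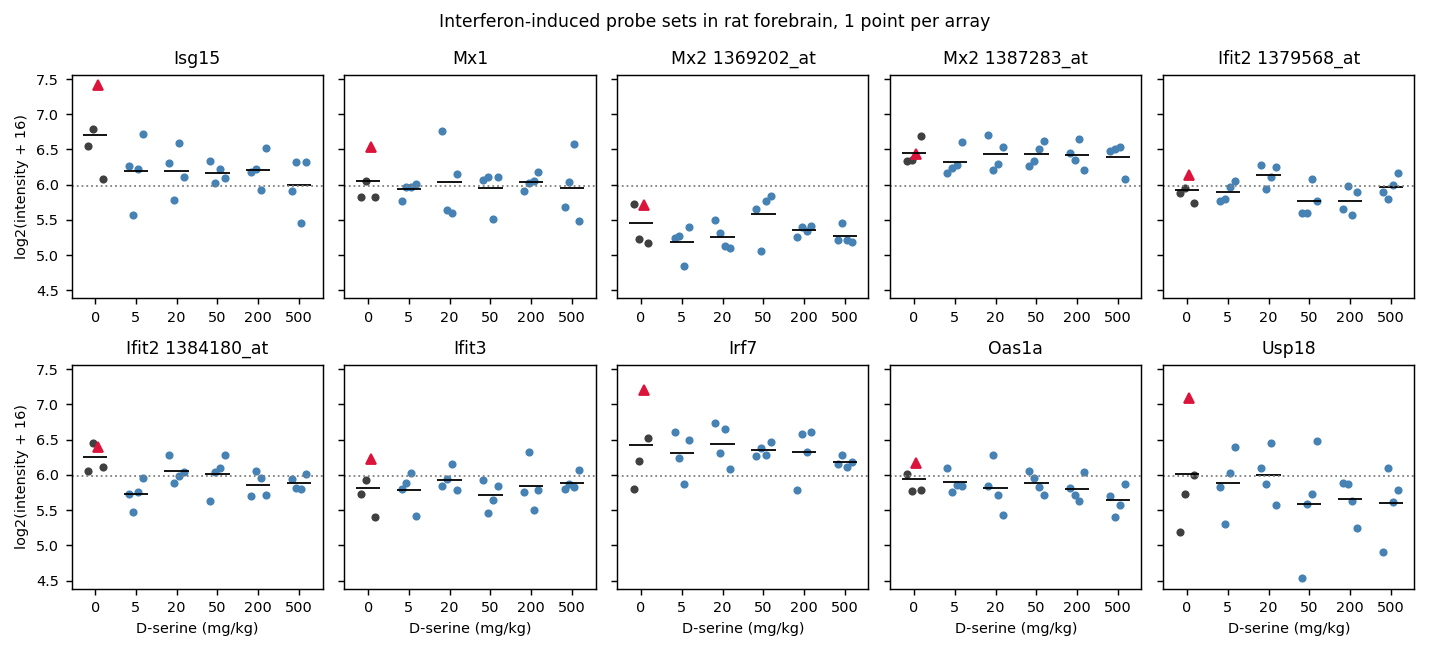
Level of each member probe set, log2(intensity + 16) after quantile normalization, on each of the 24 arrays by dose in mg/kg (0 is vehicle). Points are arrays, short lines are group means, the dotted line is the filter limit of 5.98, and the triangle is vehicle replicate 3, which reads highest of all arrays for Isg15, Irf7 and Usp18.

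Isg15 had the largest difference from vehicle among the members. It encodes a ubiquitin-like protein that is attached to other proteins and is one of the most strongly induced products of interferon signalling. Its level in the 4 vehicle arrays was 6.55, 6.79, 7.42 and 6.08. At 5 mg/kg it read 6.27, 5.57, 6.23 and 6.71. The arrays at 20 mg/kg gave 6.30, 5.79, 6.60 and 6.11, and those at 50 mg/kg gave 6.34, 6.02, 6.22 and 6.09. Every dose group overlapped with vehicle, since vehicle replicate 4 lay among the treated arrays, and at 5 and 20 mg/kg vehicle replicate 1 did too. At 200 mg/kg the values were 6.18, 6.22, 5.92 and 6.52, and at 500 mg/kg 5.90, 6.32, 5.45 and 6.33.

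The group means of Isg15, from high to low, were ordered vehicle (6.71 ± 0.56, SD, n = 4), 200, 20, 5, 50 and 500 mg/kg (6.001 ± 0.41). In none of the 5 steps of that order did neighbouring means differ by more than the larger of their SDs. Its difference from vehicle was -0.52, -0.51, -0.54 and -0.50 at 5, 20, 50 and 200 mg/kg. At 500 mg/kg it was -0.71 ± 0.26 (SE; 95% interval -1.24 to -0.18), a 1.63-fold lower level, with a limma adjusted p of 0.666. The slope over dose rank was -0.10 ± 0.04 per step (limma adjusted p = 0.832). Among the treated groups alone it was -0.04 ± 0.05 per step (limma adjusted p = 0.735). Leaving out 500 mg/kg replicate 4 gave -0.82 at 500 mg/kg.

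**Figure D2:**
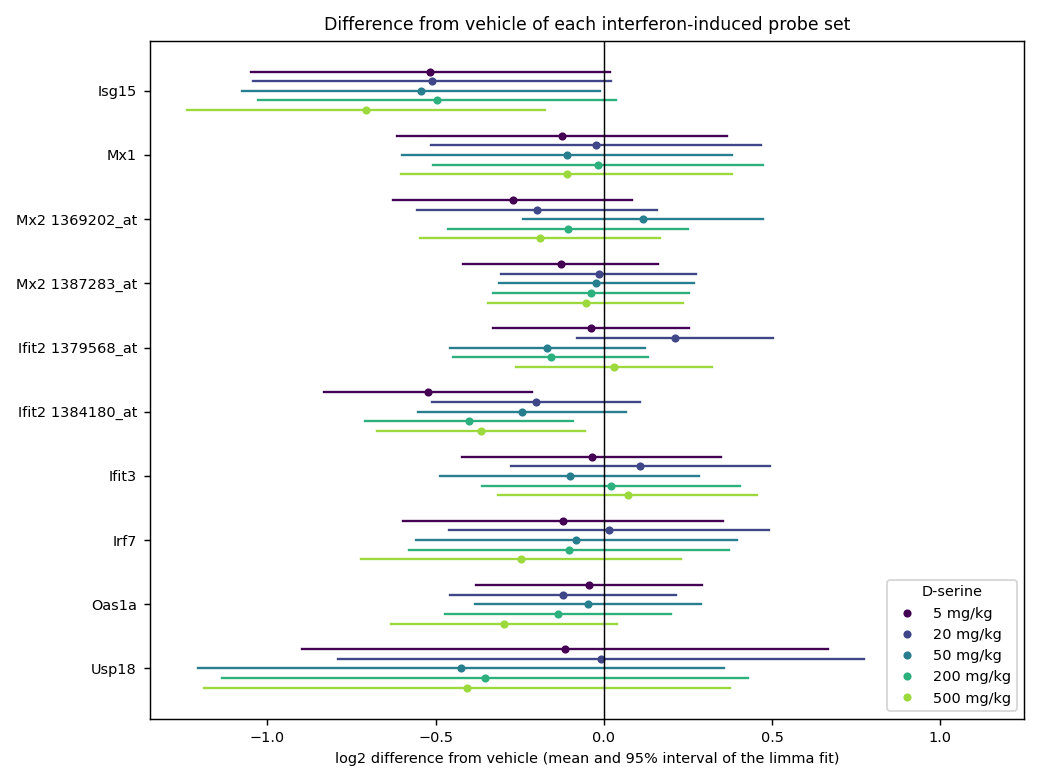
Log2 difference from vehicle of each member probe set at the 5 doses, with the 95% interval of the limma fit over all 24 arrays. Differences run from -0.71 (Isg15 at 500 mg/kg) to 0.21 (Ifit2 1379568_at at 20 mg/kg), and 5 of the 50 intervals leave out 0.

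Ifit2 and Ifit3 encode proteins with tetratricopeptide repeats that hold back translation and viral RNA. Ifit2 was read by 2 probe sets that did not go together. Its probe set 1384180_at read 6.06, 6.45, 6.39 and 6.11 in vehicle and 5.73, 5.48, 5.75 and 5.96 at 5 mg/kg, so every array at 5 mg/kg lay below every vehicle array. The 200 mg/kg arrays (5.70, 6.05, 5.95 and 5.71) and the 500 mg/kg arrays (5.93, 5.81, 5.80 and 6.01) also lay below all vehicle arrays. These were the only member groups that did not overlap with vehicle, 1 of 10 probe sets at each of these 3 doses. Over all probe sets, groups below vehicle without overlap made up 4.45% at 5, 5.22% at 20, 2.81% at 50, 1.71% at 200 and 1.33% at 500 mg/kg.

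The difference of Ifit2 1384180_at was -0.52 ± 0.15 at 5 mg/kg (SE; limma adjusted p = 0.0629 without a filter), the smallest adjusted p of any member in the fit over all arrays. Without 50 mg/kg replicate 1 the adjusted p of the same difference was 0.0377. It was -0.20 at 20, -0.24 at 50, -0.40 at 200 and -0.37 at 500 mg/kg. The other probe set, 1379568_at, differed by -0.04, 0.21, -0.17, -0.16 and 0.03 at the same doses, and its highest group mean was at 20 mg/kg (6.14 ± 0.16, SD, n = 4) against 5.93 ± 0.17 in vehicle. The lower level of Ifit2 at 5 mg/kg was thus read by 1 of its 2 probe sets and did not pass the test with all arrays. Ifit3 had group means between 5.72 ± 0.21 at 50 mg/kg and 5.93 ± 0.16 at 20 mg/kg, with 5.82 ± 0.34 in vehicle (SD, n = 4), and was below vehicle at 2 of 5 doses.

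Mx1 and Mx2 encode dynamin-like GTPases that block virus replication. Mx1 averaged 6.06 ± 0.33 in vehicle and between 5.93 ± 0.11 (5 mg/kg) and 6.04 ± 0.11 (200 mg/kg) in the treated groups (SD, n = 4). Its highest array was 20 mg/kg replicate 1 at 6.76, well above the other arrays of that group at 5.64, 5.595 and 6.15. The 2 probe sets of Mx2 differed in brightness and in order. Mx2 1387283_at, the brighter, had means from 6.33 ± 0.20 at 5 mg/kg to 6.45 ± 0.16 in vehicle, a spread of 0.13 that is less than its median SD of 0.19. Mx2 1369202_at was highest at 50 mg/kg, with 5.58 ± 0.36 against 5.46 ± 0.30 in vehicle, and lowest at 5 mg/kg, with 5.19 ± 0.24.

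Oas1a encodes an oligoadenylate synthetase, which senses double-stranded RNA and activates RNase L. It read 6.02, 5.77, 6.17 and 5.78 in vehicle and 5.70, 5.41, 5.57 and 5.88 at 500 mg/kg. The ranges overlap, and the difference at 500 mg/kg was -0.30 ± 0.16 (SE; limma adjusted p = 0.799). At the other 4 doses it lay between -0.14 and -0.04.

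The regulators Irf7 and Usp18 were marked by a single vehicle array. Irf7 read 5.79, 6.20, 7.20 and 6.52 in vehicle. In the 20 treated arrays it ran from 5.79 to 6.73 with a median of 6.30, so that only vehicle replicate 3 lay above the treated range. Its group means ran from 6.44 ± 0.30 at 20 mg/kg and 6.43 ± 0.59 in vehicle to 6.18 ± 0.07 at 500 mg/kg (SD, n = 4). Usp18 had the widest spread of the members. It read 5.20, 5.73, 7.10 and 6.0004 in vehicle, and 4.53, 5.58, 5.73 and 6.48 at 50 mg/kg. Its means ran from 6.01 ± 0.80 in vehicle to 5.58 ± 0.80 at 50 mg/kg, a difference of -0.43 ± 0.38 (SE; limma adjusted p = 0.783).

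Over all 10 probe sets, group means that neighbour each other in order seldom differed beyond the spread. Among the 5 steps of each order, 8 probe sets had 0 steps larger than the larger SD of the pair. Ifit2 1384180_at had 1, from vehicle down to 20 mg/kg, and Ifit2 1379568_at had 1, from 20 down to 500 mg/kg.

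Vehicle replicate 3 read high for several members, most of all Isg15, Irf7 and Usp18. It was singled out after its values were seen, so leaving it out was bound to raise the differences of members that read high there. On it Isg15, Irf7 and Usp18 reached the 70.0, 66.0 and 63.99 percentile of the array, and 3 of the 10 member probe sets had their highest value of all 24 arrays there. Of the 10, 7 were among their own 3 highest there, as were 13.6% of all probe sets. It was 0.95 above the mean of the other vehicle arrays for Isg15, 1.03 for Irf7 and 1.45 for Usp18. In the deposited intensities, before any normalization, it was also the highest array for Isg15 (121.2) and Usp18 (94.7) and the second highest for Irf7 (102.9), although its median intensity of 56.0 was the lowest of all arrays. The array of 20 mg/kg replicate 1 also had 3 member probe sets at their highest, Mx1, Mx2 1387283_at and Ifit2 1379568_at, and 5 among their 3 highest.

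Without vehicle replicate 3 the differences of Isg15 were -0.28, -0.27, -0.31, -0.26 and -0.47 at the 5 doses, still below vehicle. Those of Irf7 were 0.14, 0.27, 0.18, 0.15 and 0.01, so that its sign turned at 4 doses. Those of Usp18 were 0.25, 0.36, -0.06, 0.01 and -0.04, turning at 5, 20 and 200 mg/kg. Ifit2 1384180_at at 5 mg/kg moved little, from -0.52 to -0.48, as did Mx2 1387283_at, from -0.129 to -0.133.

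**Figure D3:**
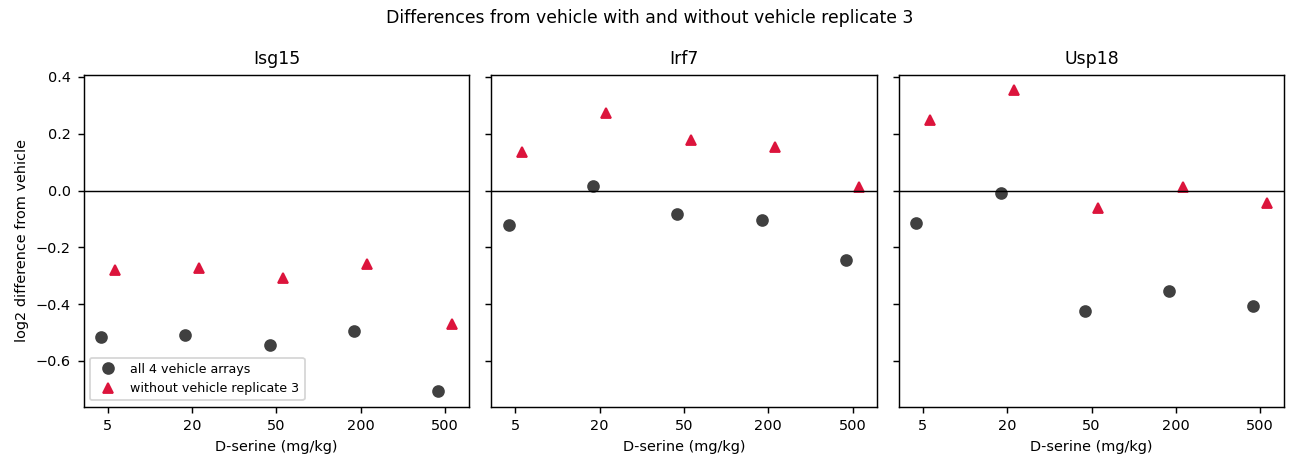
Log2 difference from vehicle at each dose in mg/kg for Isg15, Irf7 and Usp18, with all 4 vehicle arrays (circles) and without vehicle replicate 3 (triangles). Isg15 stays below 0, at -0.26 to -0.47, while Irf7 lies at 0.01 to 0.27 without that array.

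Other interferon-stimulated genes read high on the same array. In a list of 40 such genes outside the members, 39 probe sets were on the array, and 10 of these (25.6%) had their highest value of the 24 arrays on vehicle replicate 3, against 4.44% of all probe sets. They belonged to Rsad2, Parp14, Ube2l6, Samhd1, Trim25, Uba7, Ifi44, Adar, Ddx60 and Bst2. Rsad2, which encodes the antiviral enzyme viperin, read 7.22 there and 6.08 to 6.39 on the other vehicle arrays. Ube2l6, the conjugating enzyme that attaches Isg15, read 6.85 against 6.20 to 6.49. Bst2, or tetherin, which holds budding viruses at the membrane, read 7.52 against 6.75 to 7.41. Of the 39, 20 (51.3%) were highest of the 4 vehicle arrays on replicate 3, as were 25.9% of all probe sets, and their median was 0.17 above the other vehicle arrays.

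Of the other lists, interferons and receptors had 3 of 16 probe sets (18.8%) highest of the 24 arrays on vehicle replicate 3, interferon gamma targets and antigen presentation 3 of 25 (12.0%), nucleic acid sensing 1 of 11 (9.09%) and JAK-STAT and IRF genes 2 of 23 (8.70%). Of the 25 probe sets of interferon gamma targets and antigen presentation, 7 (28.0%) were highest of the 4 vehicle arrays there, and their median was -0.06 against the other vehicle arrays. The difference between the lists was not tested. Of the cell type markers, some summed to within the vehicle range on this array and others to its lowest value. The summed intensity of 11 microglial markers was 1693 on it, within the vehicle range of 1424 to 1847. That of 9 lymphocyte markers, 178, and of 8 endothelial markers, 2029, was the lowest of the vehicle arrays. The 3 blood markers summed to 3711, within 2866 to 4126, and 5 markers of neutrophils and monocytes to 134, within 91.3 to 153. Thalamic markers summed to 794, within 788 to 4376, choroid plexus markers to 398, within 322 to 9085, and meningeal markers to 1248, within 784 to 1613. Those of forebrain neurons summed to 7496, within 6741 to 8976. The part of cell content in the high readings of this array was not tested. No marker probe set was listed at 0 on any array. The Gapdh ratio of vehicle replicate 3, a sign of RNA quality described next, was 0.82, as in the vehicle mean.

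**Figure D4:**
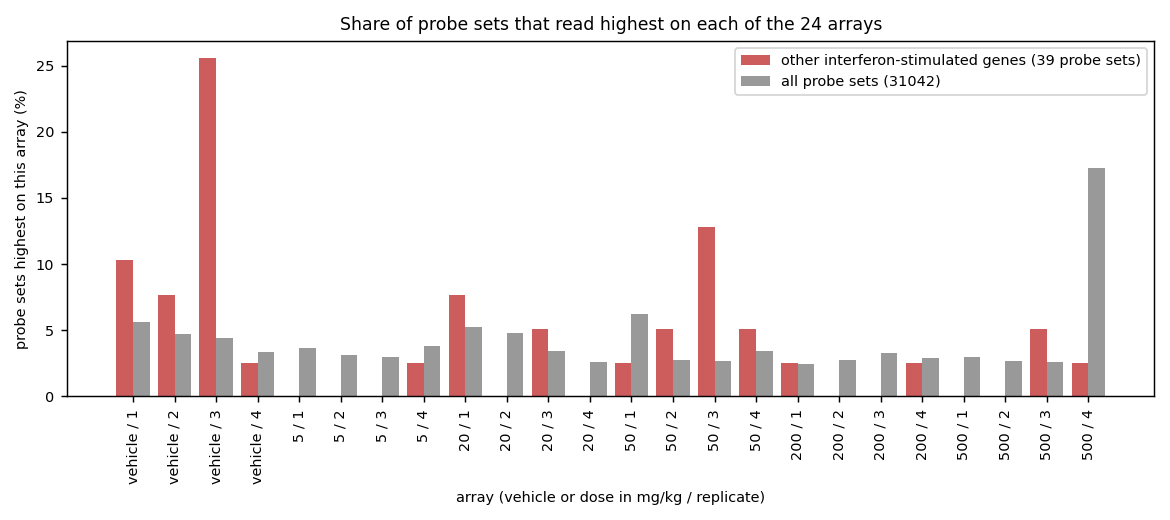
Share in percent of probe sets whose highest value over the 24 arrays falls on each array, for 39 probe sets of other interferon-stimulated genes and for all 31042 probe sets that are not controls. Vehicle replicate 3 holds 25.6% of the former and 4.44% of the latter, and 500 mg/kg replicate 4 holds 17.3% of all probe sets and 2.56% of the list.

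A control ratio used as a sign of RNA quality moved with the dose groups. The Gapdh control is read near both ends of its transcript, and its 3' signal over its 5' signal was, on the log2 scale, 0.82 ± 0.06 (SD, n = 4) in vehicle. It was lower at 5 mg/kg (0.19 ± 0.07), 20 mg/kg (0.18 ± 0.04) and 50 mg/kg (0.34 ± 0.17) (exact two-sided permutation p = 0.0286, the smallest 4 against 4 can give, adjusted p = 0.0476). At 200 and 500 mg/kg it was 0.60 ± 0.21 and 0.75 ± 0.14 (exact permutation p = 0.0857 and 0.371). With the ratio as a covariate the difference of Isg15 was -0.48, -0.47, -0.51, -0.48 and -0.70, near its values without it. At 5 mg/kg most other members moved more. Usp18 went from -0.12 to -0.69, Mx1 from -0.12 to -0.54 and Mx2 1387283_at from -0.13 to -0.45. Ifit2 1384180_at went from -0.52 to -0.78, Irf7 from -0.12 to -0.34 and Mx2 1369202_at from -0.27 to -0.41. Ifit3 (-0.04 to 0.28) and Oas1a (-0.04 to 0.21) turned sign, and Ifit2 1379568_at moved little (-0.04 to -0.05). At 5, 20 and 50 mg/kg every ratio lay below those of vehicle, so dose and ratio cannot be told apart in that fit. The part of RNA quality in the members' differences was not tested beyond this.

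The rest of the pathway was described with 5 lists, with each gene read by its brightest probe set. In these, 0 genes rose and 0 fell in any list in any comparison. Over all probe sets past the filter, 5.52%, 8.48%, 0.864%, 0% and 0.00537% were called at the 5 doses. The F test called 5.93%, and the slope and 500 against 200 mg/kg 0%. Where so few were called, a count of 0 says little about the lists. Of 14 interferons and receptors, 9 were on the array and 5 passed the filter. Ifnb1, the interferon beta gene, did not pass the filter. It too read highest on vehicle replicate 3, at 4.89, against 4.44 to 4.52 on the other vehicle arrays and at most 4.56 on treated ones. Ifngr1 and Il10rb, receptor chains for interferon gamma and for the interferon lambda and interleukin-10 families, had their largest differences at 0.19 (20 mg/kg) and -0.34 (5 mg/kg). Of 16 JAK-STAT and IRF genes, 12 passed the filter. Irf3, the factor that starts interferon transcription, differed by -0.34 at 5 and -0.42 at 20 mg/kg (limma adjusted p = 0.191 and 0.0724). Irf9 differed by -0.27 at 200 mg/kg and Jak2 by 0.31 at 5 mg/kg, and neither passed.

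Of 13 sensors of nucleic acid, 8 were on the array and 3 passed the filter. Zbp1 and Ifih1 did not, and Mavs, the adaptor of the RNA sensors, differed by at most 0.19 on its brightest probe set. Of 40 other interferon-stimulated genes, 19 passed the filter, and 11, 13, 11, 14 and 16 of them lay below vehicle at the 5 doses, with medians of -0.12, -0.02, -0.04, -0.19 and -0.16 beside 0.00, 0.00, 0.00, 0.01 and 0.00 over all probe sets past the filter. Ifitm3, which blocks virus entry at membranes, differed by -0.53 ± 0.15 at 500 mg/kg (SE; limma adjusted p = 0.532). Ifi35 differed by -0.45 there, and Oasl by 0.30 at 50 mg/kg. Of 22 antigen presentation and interferon gamma genes, 9 passed the filter. Tap1, the peptide transporter, had its largest difference, 0.94 ± 0.26, at 200 mg/kg (SE; limma adjusted p = 0.831) and did not pass it. Ciita and Psmb10 had their largest differences at -0.27 and -0.21.

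Other probe sets of 3 of these genes passed the test where the brightest did not. Jak1 1384060_at rose by 0.75 ± 0.16 at 5 mg/kg (SE; limma adjusted p = 0.00652) and 0.83 ± 0.16 at 20 mg/kg (limma adjusted p = 0.00195), while the brighter Jak1 1383478_at differed by 0.10 and 0.16. Ifnar1, a chain of the type I interferon receptor, rose by 0.55 at 5 mg/kg on 1375696_at (limma adjusted p = 0.0296) and by 0.60 at 20 mg/kg on 1395364_at (limma adjusted p = 0.023), and its brightest probe set, 1398055_at, differed by -0.12 and -0.19. Adar 1368973_at, of an RNA-editing enzyme, rose by 0.48 at 20 mg/kg (limma adjusted p = 0.00711) while the brighter 1376022_at differed by 0.04. Altogether 2 of 63 probe sets of the lists past the filter were called at 5 mg/kg (3.17%) and 3 at 20 mg/kg (4.76%), below the 5.52% and 8.48% of all probe sets. These were the doses at which the Gapdh ratio was lowest, at most 0.255 on any of their arrays against 0.755 or more in vehicle. Dose and ratio cannot be told apart here, so the loss of calls given next does not separate them. With that ratio as a covariate 0 of 18625 probe sets were called at either dose, and all 5 of these calls were lost. Jak1 1384060_at then differed by -0.05 ± 0.23 and 0.02 ± 0.23 (SE; limma adjusted p = 0.978 and 0.992), Ifnar1 1375696_at by -0.01 at 5 mg/kg, Ifnar1 1395364_at by 0.06 and Adar 1368973_at by 0.26 at 20 mg/kg.

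Members correlated weakly and in both directions from rat to rat. After each group's mean was taken off, 22 of the 28 pairs of genes correlated positively over the 24 arrays, with a median Pearson's r of 0.21. Pairs share genes and so are not separate, and other gene sets were not counted beside them. With labels permuted within groups, 0 pairs passed after adjustment (smallest permutation adjusted p = 0.122) and 4 had an unadjusted p under 0.05. Ifit2 and Usp18 had an r of 0.61 (rho 0.55, permutation p = 0.0116 and 0.017). It was 0.44 without the 2 arrays farthest from the median of Ifit2, the first gene of the pair. Outlying arrays of the second gene were not looked for. Irf7 and Usp18 had an r of 0.52 (rho 0.45, permutation p = 0.0235 and 0.0492). This was 0.23 without the 2 farthest arrays of Irf7 and 0.36 without vehicle replicate 3. Negative values were found for Mx2 with Oas1a, at -0.60 (rho -0.61; permutation p = 0.00941 and 0.00737), and for Mx2 with Ifit3, at -0.53 (rho -0.54; permutation p = 0.0131 and 0.015). Without the 2 farthest arrays of Mx2 these were -0.69 and -0.46. Without vehicle replicate 3 the median over pairs was 0.11 and 20 were positive. The neighbours Ifit2 and Ifit3 had an r of 0.07, and Mx1 and Mx2 one of 0.44.

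**Figure D5:**
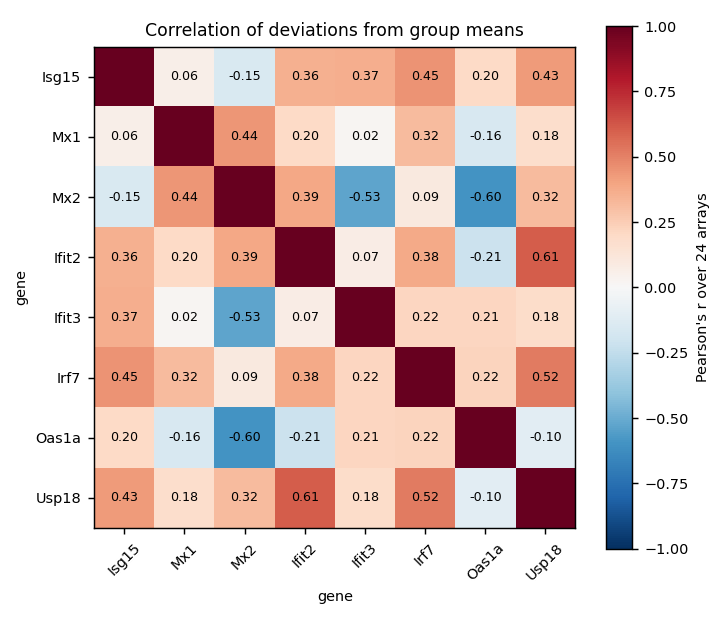
Pearson's r between member genes over 24 arrays, computed on deviations from the group means, with Mx2 and Ifit2 read by their brighter probe set. Values run from -0.60 (Mx2 with Oas1a) to 0.61 (Ifit2 with Usp18), and no pair passes the adjusted test.

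The genes most like the members were sought by correlation with the mean of the 4 member genes past the filter, each scaled to its own spread, over the 24 arrays and among 10201 genes. The highest r was that of Rngtt, which caps messenger RNA, at 0.69 (rho 0.66). Slc4a7, a bicarbonate transporter, followed at 0.67, Trim24 at 0.66, the fatty acid binding protein Fabp5 at 0.66 and Ppp1r14c at 0.66. The median over all candidates was 0.00. With group means taken off, Rngtt (0.79), Slc4a7 (0.78), Prps1 (0.77), Fabp7 (0.75) and Erh (0.75) led. Since these are the highest of many, they carry no test, and without vehicle replicate 3 and 20 mg/kg replicate 1 those of the first set were 0.53 to 0.57.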

How the data were processed

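The deposited values are intensity on a linear scale, a signal for each probe set from GCOS, Affymetrix's software, per the submitters' processing notes, and its version and scaling were not stated. The platform annotation gave 1 gene symbol for 20832 probe sets, several for 436 and none for 9831. The members and lists were chosen with earlier results of these data known. Because the deposited intensity medians spanned 0.73 on the log2 scale, arrays were quantile normalized and taken as log2(intensity + 16). Of 31099 probe sets, 57 controls were left out, and leaving out the lowest 40% by mean left 18625. In limma 3.58.1 (R 4.3.3), 1 model of 6 group means over 24 arrays with an intensity trend gave differences, intervals and Benjamini-Hochberg adjusted p-values. Members under the filter come from the same fit of 31042 probe sets without it. Named genes are all members, and of each pathway list the 3 with the smallest F test p, plus any that pass. The genes listed for vehicle replicate 3 fall outside this rule and were named because they read highest on that array. Those most like the members were named for their correlation. Cell types were judged from 10 marker lists, by summed intensity after normalization. RNA ratios were compared by exact permutation, and member correlations by 100000 permutations within groups (Python 3.11.15, scipy 1.17.1). The steps were tested on simulated data. Promoter sequences are from RefSeq. Alternatives are given at the end. Scan dates and batches were not used here.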

Additional observations from a re-analysis of the deposited data

Results flagged for a closer look

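In 3 of 60 sets of 4 arrays, 1 array lay far from the other 3, which is about the 1 in 20 that chance gives. Mx1 read 5.52 on 50 mg/kg replicate 3, where the other 3 arrays of that group read 6.06 to 6.11. Mx2 1369202_at read 5.46 on 500 mg/kg replicate 2, where the others read 5.19 to 5.22. Mx2 1387283_at read 6.08 on 500 mg/kg replicate 4, the array with cerebellar markers, where the others read 6.48 to 6.53.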

How the results depend on the processing

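The number of the 10 members past the adjusted test, 0 with the settings of the report, was recomputed 280 times under 37 other settings, among them no filter, median centring, values as deposited, other pseudocounts, array weights and each array left out in turn. It was 1 in 4 of these counts and 0 in the rest. At 5 mg/kg it was 1 with no intensity trend (limma adjusted p = 0.0472) and 1 with array weights (0.0374). Leaving out 1 array at a time gave 0 to 1, the 1 being without 50 mg/kg replicate 1 (0.0377). In each case the member was Ifit2 1384180_at, whose adjusted p ran from 0.0374 to 0.801. At 20 mg/kg it was 1 in the values as deposited, with Ifit2 1379568_at 0.50 higher (limma adjusted p = 0.0481). The cause was not tested. With a filter of 60% no member was left, so it gave no value. Of 1710 recomputed member differences 84 turned sign, none of them called. No paired analysis was possible because the labels name a separate rat for every array and give no shared replicate numbers. Limits are the low signal of the members and 4 arrays per group.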
